A study of Mus musculus with 25 samples.

Results

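Zfp900 to Zfp999 are a numbered stretch of mouse zinc finger genes. They were chosen by name alone, as the protein-coding genes whose symbol is Zfp followed by a number in that stretch and no letter. The annotation held 63 such genes, and 62 of them were among the 35561 genes of both expression tables, 57 in the oocyte table and 62 in the embryo table. Zfp935 was in neither table and was not analysed here. The related symbols with a letter after the number, Zfp955a and Zfp955b, and the pseudogene Zfp939 were kept apart. The sequences bear out the name for most: 57 of the 62 members had at least 1 C2H2 finger pattern in the longest reading frame of their annotated transcripts, with a median of 11 fingers, and 47 also had a pattern of the KRAB box.

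C2H2 zinc finger proteins bind DNA through a row of finger modules, each of which contacts a few neighbouring bases, so that the order of fingers sets the target. In many of them a KRAB domain recruits Trim28, which brings the histone methyltransferase Setdb1 and heterochromatin proteins to the bound site. The family is known for silencing transposable elements and guarding imprinted loci in early embryos and many of its genes lie in arrays of duplicates. No individual role is stated for members where none is known with certainty.

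Smart-seq2, a method for whole transcripts of a few cells, was applied to C57BL/6 mouse oocytes at metaphase II (MII) after 16 h of maturation in vitro, to 2-cell embryos, and to morulae, the compacting embryos that precede the blastocyst. Embryos came from in vitro fertilization over 6 h. The culture medium held either PBS, the control, or VCD, an agent for which the sources used here give neither a full name nor a dose. No genetic change is named. The 25 libraries formed 6 groups: MII oocytes with PBS (n = 4) or VCD (n = 5), 2-cell embryos with PBS (n = 4) or VCD (n = 4), and morulae with PBS (n = 4) or VCD (n = 4). The labels do not say how many oocytes or embryos a library held, or whether replicates were separate animals or cultures. A p-value here thus covers the spread among these libraries alone, which may be technical. Sex and age of the animals are not given either.

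Values are FPKM, fragments counted per gene, scaled to gene length and library size. Between 15075832 and 20998296 fragments per library stood behind them, so that 1 fragment in a gene of 1 kb was worth between 0.0476 and 0.0663 FPKM. Each list of stage markers summed highest in its own stage. The 9 oocyte genes gave between 8122 and 11419 FPKM in MII libraries. The 7 genes of the 2-cell stage gave between 920 and 1373 FPKM in 2-cell libraries, and 8 morula genes between 211 and 344 FPKM in morulae. None was confined to its stage: oocyte genes still summed to between 3103 and 4022 FPKM in 2-cell libraries, above the 2-cell genes there. Morula genes summed to between 56.5 and 117 FPKM in oocytes, and Eif1a of the 2-cell list averaged 169 FPKM in PBS morulae. Of the cells an oocyte could carry along, cumulus and granulosa markers summed to at most 14.7 FPKM, led by Cyp19a1 at 8.85 FPKM in PBS oocytes, and sperm markers averaged below 1 FPKM each in every group. In libraries of this kind fewer cells and less RNA per cell cannot be told apart. Single libraries stood apart in the members. Replicate 4 of the 2-cell VCD group gave the lowest value of its group for 30 of 45 members (all genes: 22.04%), replicate 3 the highest for 29 of 45 (all genes: 21.2%), and replicate 1 of the VCD morulae the lowest for 28 of 39 (all genes: 33.8%). In VCD oocytes replicate 1 was highest for 19 of 33 (all genes: 17.99%) and replicate 4 lowest for 19 of 33 (all genes: 14.5%). PBS libraries did so too, with replicate 4 of the oocytes highest for 48.5% of members (all genes: 21.6%) and replicate 3 of the morulae for 48.6% (all genes: 21.4%).

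Of the 62 members 43 lie in runs of 3 or more whose neighbouring starts are within 1 Mb, called arrays here. Chromosome 4 held all of its 16 in such an array of 2.34 Mb, chromosome 2 held 10 of 11 within 2.71 Mb and chromosome 17 held 10 of 13 within 1.30 Mb. Shorter runs held 4 of the 8 members of chromosome 7 and 3 of the 5 of chromosome 8, and the other 19 members lie apart. The chromosomes differ in how alike their members are. The share of 50-base words of a member's transcripts that also occurs in another gene had a median of 84.7% on chromosome 2, 61.2% on chromosome 4, 9.83% on chromosome 17 and 0.879% on chromosome 8. For 31 members this share was under 20%, and for 18 it was 50% or more. How fragments that match several copies were counted is not stated, so values of the more alike members are uncertain, and whether fragments moved between copies was not tested.

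The start regions of 4 members are shown first, because they are among the 6 that fell most between the 2-cell stage and the morula and because those on chromosome 17 share letters. Each is read 5′ to 3′ on the strand of its gene, from RefSeq's promoter table on GRCm38.p6. In the 3 of chromosome 17 the capitals mark a 16-base run, CACGTGACCGGAACCG, found in all of them. In Zfp979, the most abundant member, they mark an overlapping CCAAT box (ATTGG on this strand) and GC box.
Zfp946, the 250 bases before its annotated start, chr17:22423972-22424221, plus strand: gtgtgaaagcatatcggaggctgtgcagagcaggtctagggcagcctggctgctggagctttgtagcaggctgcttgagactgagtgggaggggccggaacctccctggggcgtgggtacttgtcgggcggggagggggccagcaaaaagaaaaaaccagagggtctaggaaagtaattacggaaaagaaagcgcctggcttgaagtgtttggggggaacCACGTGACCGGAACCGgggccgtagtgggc
Zfp944, the 52 bases between its start and that of Zfp758, chr17:22361401-22361452, minus strand: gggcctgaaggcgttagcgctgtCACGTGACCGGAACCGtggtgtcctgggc
Zfp942, the 87 bases between its start and that of Zfp943, chr17:21962465-21962551, minus strand: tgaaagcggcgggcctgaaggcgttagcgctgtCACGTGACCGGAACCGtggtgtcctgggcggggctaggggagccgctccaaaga
Zfp979, the 250 bases before its RefSeq start, chr4:147642509-147642758, minus strand: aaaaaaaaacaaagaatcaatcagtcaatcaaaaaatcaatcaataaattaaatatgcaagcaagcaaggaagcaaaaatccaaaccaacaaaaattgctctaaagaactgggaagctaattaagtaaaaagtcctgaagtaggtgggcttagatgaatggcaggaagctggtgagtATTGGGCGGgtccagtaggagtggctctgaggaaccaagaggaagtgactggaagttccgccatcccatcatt

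The 16-base run occurred, on either strand, in 5 of 32851 promoters of 300 bases (250 before to 50 after the start), or 0.0152%. These were Zfp942, Zfp943, Zfp944 and Zfp946 among the members, and Zfp758. The genes are head-to-head pairs in part: Zfp942 and Zfp943 start 87 bases apart on opposite strands, so they share 1 stretch of DNA, and so do Zfp944 and Zfp758, 52 bases apart. The windows of Zfp942 and Zfp944 were 91.3% identical, with a longest common run of 207 bases, while those of Zfp944 and Zfp946 were 58% identical. These 5 genes are therefore not independent examples. The run was looked for after the values of these genes were known.

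A set of 6 short motifs was searched on both strands over the promoters of the 52 members that had an entry in RefSeq's table. CCAAT, the CCAAT box, was found in 39 of 52 (75.0%), against 41.1% of the 27025 genes with an entry. TATAAA, the TATA box, was found in none of the 52, against 15.7% of all genes. The others lay near the overall share: GGGCGG, the GC box, in 18 (34.6%, all genes 38.2%), AGGTCA, bound by nuclear receptors, in 9 (17.3%, all genes 18.1%), TAATCC, the core bound by Otx and Obox homeodomains, in 6 (11.5%, all genes 8.14%) and TGACGTCA, the CRE, in 1 (1.92%, all genes 2.03%). Apart from the joined CCAAT and GC boxes of Zfp979, no overlap between motifs was seen in the regions printed. A match is a string of letters and not a measured binding site. Members that arose by duplication may share promoter sequence, so the counts may not be independent. Likeness of promoters was measured only among the members printed above.

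Expression of the set was uneven. Of the 62 members, 12 had a mean under 1 FPKM in every group, 23 reached 10 FPKM in at least 1 group, and only Zfp979, Zfp982 and Zfp961 reached 100 FPKM. Fragments were seen in all 25 libraries for 43 members. The summed FPKM of the members was 673 ± 42.9 (SD, n = 4) in PBS oocytes, 1070 ± 95.1 (n = 4) in PBS 2-cell embryos and 433 ± 48.1 (n = 4) in PBS morulae, which was 0.223%, 0.303% and 0.118% of all FPKM. With PBS the sum was thus highest at the 2-cell stage and lowest in morulae, and the groups of libraries did not overlap. With VCD the means kept this order (663, 1094 and 382 FPKM), but oocytes, at 536 to 833, overlapped 2-cell embryos, at 719 to 1412. The 3 leading genes held 55.1% of the PBS sum in oocytes, 52.3% in 2-cell embryos and 26.6% in morulae.

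**Figure D1:**
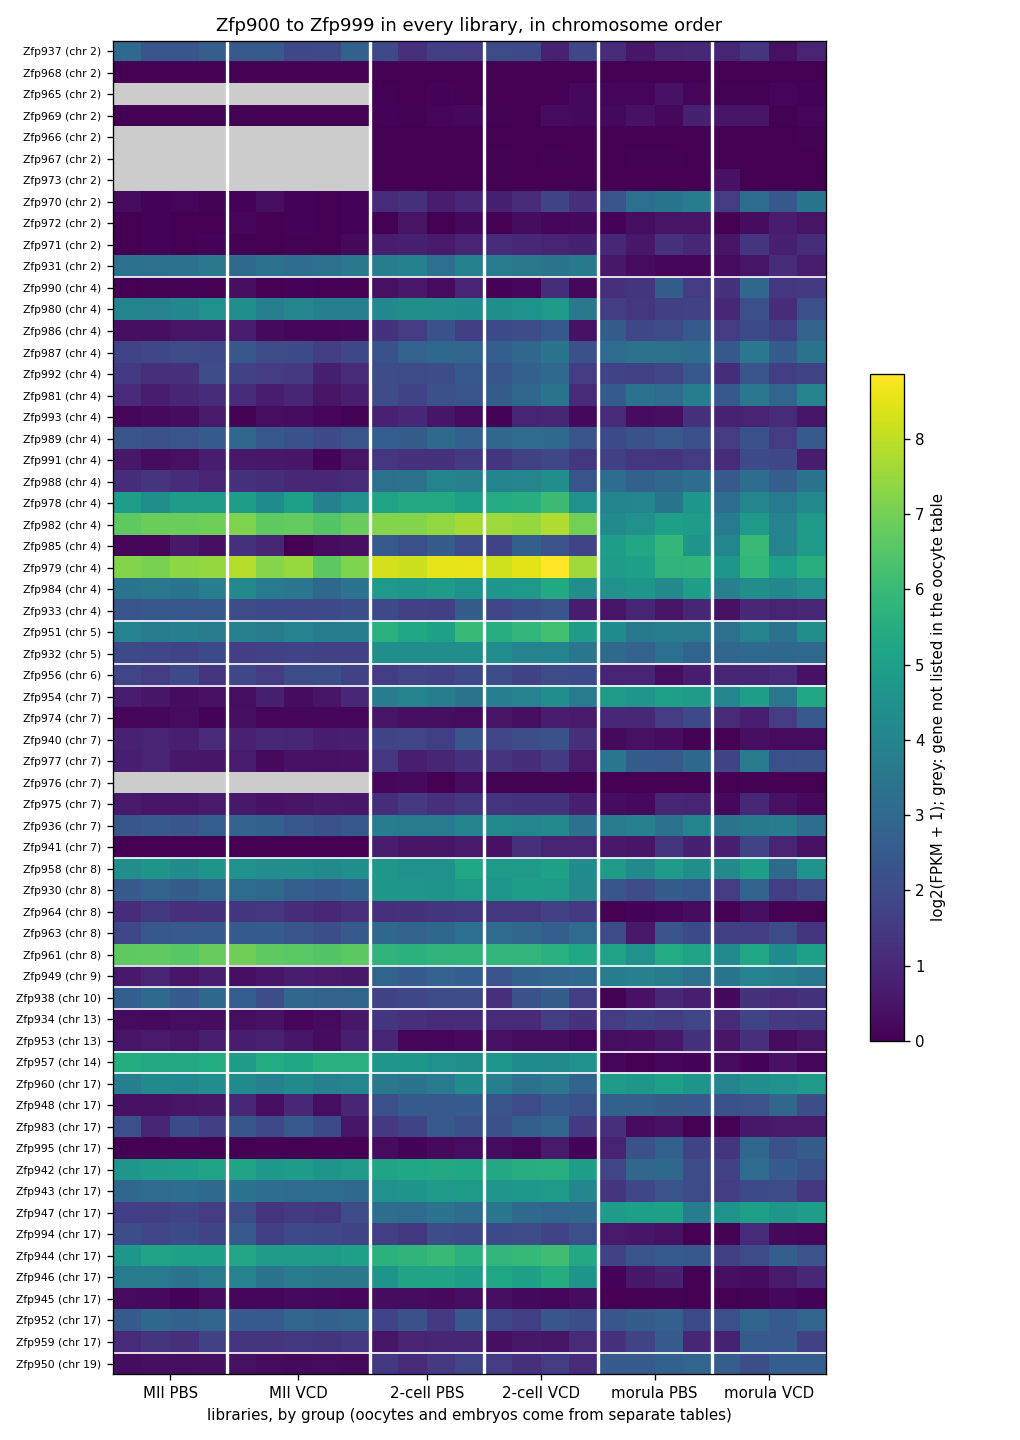
Heat map of log2(FPKM + 1) for the 62 members (rows, in chromosome order) in all 25 libraries (columns, by group); grey marks the 5 genes not listed in the oocyte table. Zfp979, Zfp982 and Zfp961 form the brightest rows, and most of the array on chromosome 2 is dark in every group.

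The stage of highest mean level was MII for 7 of the 50 members that reached 1 FPKM, the 2-cell stage for 24 and the morula for 19. Chromosome 8 members peaked at the 2-cell stage in 4 of 5 cases and in morulae in none. On chromosome 17 the split was 2, 5 and 5, and on chromosome 4 it was 1, 8 and 6. These orders set oocytes beside embryos from separately made tables, so they are levels with no test.

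Zfp979, on chromosome 4 (147611937 to 147642513, minus strand of GRCm38), was the most abundant member in every MII and 2-cell library. Of its words 26.7% are shared, most with Zfp600. Its FPKM in PBS oocytes was 149, 134, 164 and 176, in PBS 2-cell embryos 305, 293, 367 and 378, and in PBS morulae 28.9, 31.5, 53.2 and 55.3. Among these PBS libraries each 2-cell value was above every oocyte value, and each morula value was below both. With VCD the oocyte and 2-cell values of Zfp979 overlapped. Zfp982, upstream in the same array and on the other strand, followed the same order with means of 114 ± 8.26 in PBS oocytes, 168 ± 26.3 in PBS 2-cell embryos and 24.6 ± 5.96 in PBS morulae (SD, n = 4 each). Zfp961, a gene of chromosome 8 with 0.879% shared words, had another order: 101 ± 6.48 FPKM in PBS oocytes, 53.0 ± 2.18 at the 2-cell stage and 32.9 ± 8.06 in morulae. Its level was highest in the oocyte and did not pass through a 2-cell peak.

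The other members of highest mean were Zfp944, Zfp942, Zfp978, Zfp951 and Zfp958. Zfp951, on chromosome 5, stood at 12.8 ± 1.20 FPKM in PBS oocytes, 45.3 ± 12.5 in 2-cell embryos and 13.3 ± 3.32 in morulae, a 2-cell peak between like levels. Zfp978, on chromosome 4, averaged 26.6, 36.0 and 16.3 FPKM over the same groups, but 77.4% of its words are shared, most with Zfp600. Zfp958, on chromosome 8, was nearly level at 21.1 ± 2.19, 26.9 ± 7.55 and 23.7 ± 5.46 FPKM. The lettered pair was abundant too: Zfp955b averaged 145 FPKM in PBS oocytes, 52.6 in PBS 2-cell embryos and 14.5 in PBS morulae.

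At the low end stood the array on chromosome 2. Of its 8 members with at least 50% shared words, 7 were under 1 FPKM in every library that lists them. Over all those libraries together Zfp968 had 3 fragments, Zfp967 had 4, Zfp966 had 5 and Zfp973 had 21, the last 3 of them in embryos only, since the oocyte table does not list them. The 8 genes share between 51.1% and 100% of their words with other genes, and reads that match several copies may have been left uncounted, which was not tested. Zfp931, at the end of the array with 23.3% shared words, averaged 9.34 FPKM in PBS oocytes. Zfp937, the 1 member of chromosome 2 outside the array, with 29.4% shared words, averaged 5.23 FPKM there.

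As levels, 4 members were over 5 times higher in 2-cell embryos than in oocytes among the 27 that reached 5 FPKM in either, and none the other way. Zfp954 averaged 0.406 ± 0.177 FPKM in PBS oocytes and 12.3 ± 2.07 in PBS 2-cell embryos. Zfp949, which shares no 50-base word with another gene, averaged 0.602 ± 0.167 and 5.58 ± 0.568. Zfp988 and Zfp932 averaged 1.19 and 2.78 FPKM in PBS oocytes and 11.6 and 20.0 in PBS 2-cell embryos. These oocyte levels were low but above 0 in every library, and no test was made across the separate tables.

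Between the 2-cell embryo and the morula most members that could be tested changed, and more fell than rose. With PBS, 46 of the 62 members passed the filter of 1 FPKM in at least 4 libraries; 26 were lower in morulae, 13 were higher and 7 did not pass an adjusted p of 0.05 (limma on log2(FPKM + 1), Benjamini-Hochberg over all genes). Over all 12517 genes tested 45.0% were lower and 42.7% higher. The median change was -0.71 among members, -0.22 among 196 other numbered Zfp genes and -0.08 among all genes; no test of these differences was made. Of the 46, 30 were at 1 FPKM or more in all 8 libraries, while 9 passed through the 2-cell libraries alone and 1 through the morulae alone, so the counts describe what could be tested and not all members.

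VCD libraries, which are separate samples, gave a like picture. Of 48 members tested 25 were lower in morulae and 11 higher, with 43.9% and 41.0% over all genes and a median change of -0.74. The filter limits these counts too: 28 of the 48 were at 1 FPKM or more in all libraries. Through the 2-cell libraries alone 5 passed, and through the morulae alone 1. All 38 members that were called with PBS and tested with VCD had the same sign in both, as did 99.8% of all genes that rose and 99.6% of those that fell. For genes that passed the filter through a single stage with both agents, the same sign was fixed by the filter. These were not taken out of the counts. Of the 26 that fell with PBS, 24 were called with VCD too (92.3%; all genes 90.6%), and of the 13 that rose, 8 were (61.5%; all genes 89.3%). Zfp934, Zfp954, Zfp981, Zfp986 and Zfp987 rose with PBS only by this threshold, but no member's interaction between agent and stage was called, so these calls are not shown to differ.

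**Figure D2:**
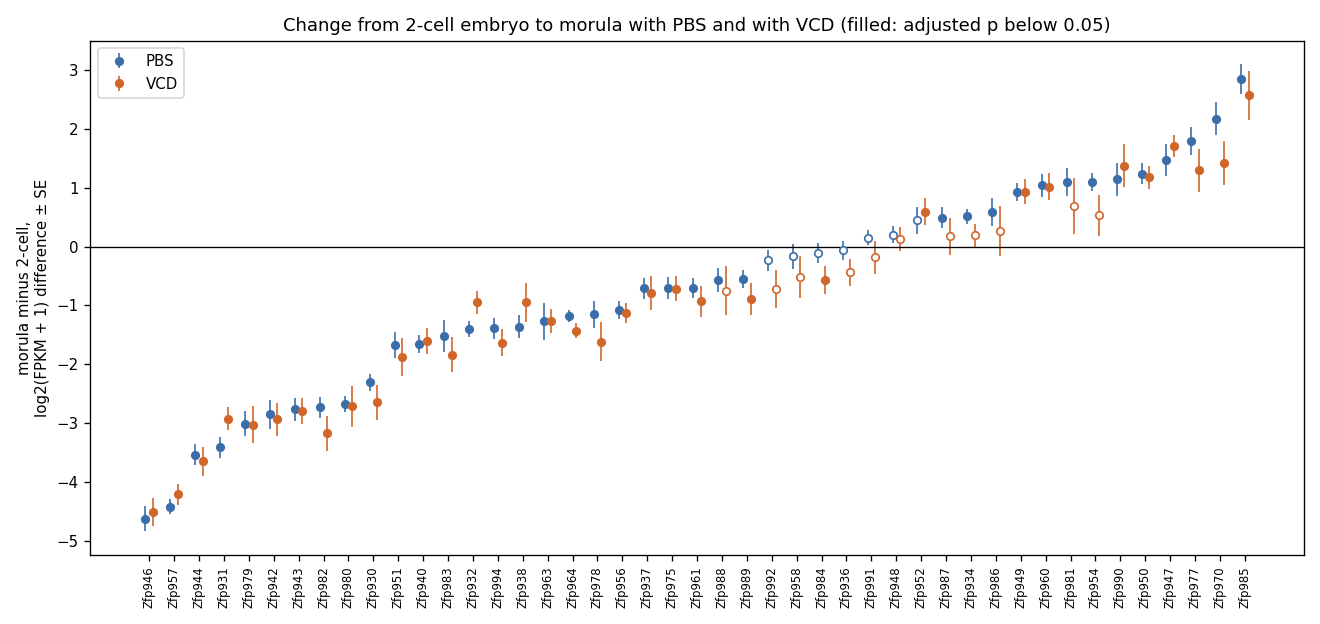
Difference between morula and 2-cell embryo on the log2(FPKM + 1) scale (points, with SE) for each member tested with both agents, ordered by the PBS value; blue is PBS, orange is VCD, and filled points have an adjusted p below 0.05. The values run from -4.63 for Zfp946 to 2.85 for Zfp985 with PBS, and open points gather around 0.

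The largest falls were on chromosome 17, chromosome 14 and chromosome 2. Zfp946 went from 22.8, 35.5, 35.4 and 30.6 FPKM in PBS 2-cell embryos to 0.0544, 0.480, 0.711 and 0 in PBS morulae, where the last library listed it at 0. Its change was -4.63 ± 0.21 (SE) with an adjusted p of 6.2e-09 by limma, and -4.52 ± 0.23 in VCD libraries. Zfp957, the only member on chromosome 14, went from 23.6, 24.8, 20.6 and 19.7 FPKM to 0.118, 0.0180, 0.115 and 0.0511, a change of -4.43 ± 0.13. No morula library of either gene came near a 2-cell library. With PBS both genes passed the filter of 1 FPKM through the 2-cell libraries alone. Their direction was thus fixed by the filter, and the adjusted p does not bear on it. Since the morula values are far below the pseudocount of 1, the size and order of these falls depend on it: with a pseudocount of 0.1 they were -6.72 for Zfp946 and -7.03 for Zfp957, and with limma-voom on recovered reads -8.08 and -8.29. Zfp957 was higher still in PBS oocytes, at 41.9 ± 2.26 FPKM, so its level was lower at each later stage. No C2H2 pattern was found in its longest reading frame.

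The shared 16-base run was taken from Zfp942, Zfp944 and Zfp946, which were picked for their falls, so their direction says nothing about the run. Its other holders, Zfp943 and Zfp758, share their start regions with Zfp942 and Zfp944 and fell too (all genes: 45.0% lower). Zfp944 had 50.1, 55.4, 62.8 and 49.2 FPKM in PBS 2-cell embryos and 2.31, 4.09, 4.64 and 4.31 in PBS morulae, a change of -3.54 ± 0.18. Zfp942 fell by 2.85 ± 0.25 (38.0 to 4.72 FPKM) and its head-to-head partner Zfp943 fell by 2.77 ± 0.19 (24.3 to 2.80 FPKM). Zfp758, the partner of Zfp944 and not a member, fell by 1.33 ± 0.16, from 26.9 to 10.1 FPKM. The 2 genes of each pair thus moved the same way, by like amounts in the first pair and by unlike amounts in the second, though that inequality was not tested.

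Zfp931 on chromosome 2 and Zfp979 were the other members of largest fall. Zfp931 went from 12.1 ± 2.58 to 0.222 ± 0.191 FPKM (SD, n = 4), a change of -3.42 ± 0.18, or -5.39 with a pseudocount of 0.1 and -6.00 with limma-voom. It too passed the filter with PBS through the 2-cell libraries alone, which fixed its direction. Zfp979 fell by 3.01 ± 0.22 with PBS and fell by 3.03 ± 0.32 with VCD. The change of Zfp982 was -2.74 ± 0.19 and -3.18 ± 0.29. Zfp979 and Zfp982 were also the most abundant members at the 2-cell stage. Smaller falls included Zfp930 and Zfp963 of chromosome 8, at -2.31 and -1.27 with PBS, and Zfp961, at -0.70 ± 0.18 with an adjusted p of 0.00299 by limma.

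Risers were fewer and mostly lower in level. Zfp985, on chromosome 4, went from 4.64, 3.43, 5.15 and 3.20 FPKM in PBS 2-cell embryos to 30.4, 37.7, 57.9 and 23.3 in PBS morulae, a change of 2.85 ± 0.26 with an adjusted p of 1.23e-06 by limma. Its level in PBS oocytes was 0.251 ± 0.200 FPKM, so it was higher at each later stage. Zfp947, on chromosome 17, rose from 8.18, 7.61, 9.27 and 7.68 FPKM to 27.9, 31.2, 32.5 and 12.3, by 1.47 ± 0.27, and it lies between Zfp943 and Zfp944, which fell. In both genes every morula value was above every 2-cell value.

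The other 4 risers of largest change had 2-cell means between 0.473 and 1.78 FPKM with PBS. Zfp970 of the chromosome 2 array rose from 1.03 ± 0.335 to 8.67 ± 3.60 FPKM, by 2.18 ± 0.28 with PBS and by 1.42 ± 0.38 with VCD, where the groups overlapped. With 49.5% shared words its level is less certain. Zfp977 of chromosome 7 rose by 1.79 ± 0.24, Zfp950 of chromosome 19 by 1.23 ± 0.18 and Zfp990 of chromosome 4 by 1.14 ± 0.28, or by 2.09 with a pseudocount of 0.1 and 2.32 with limma-voom. With PBS Zfp990 passed the filter through the morulae alone, which fixed its direction. Zfp960 of chromosome 17, with 82.7% shared words, rose by 1.04 ± 0.20 from 12.6 FPKM. Zfp954 and Zfp949, low in oocytes, started at 12.3 and 5.58 FPKM and rose to 27.5 ± 3.20 and 11.6 ± 2.08 FPKM in PBS morulae, by 1.10 ± 0.15 and 0.92 ± 0.16 (0.60 for Zfp949 with median-of-ratios scaling). With VCD, Zfp949 rose by 0.93 ± 0.21, whereas the change of Zfp954 was 0.53 ± 0.35 (adjusted p = 0.172 by limma), with its VCD morulae spread from 10.8 to 37.6 FPKM; without replicate 3 of those morulae it was 0.83 and passed the threshold (adjusted p = 0.0246).

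**Figure D3:**
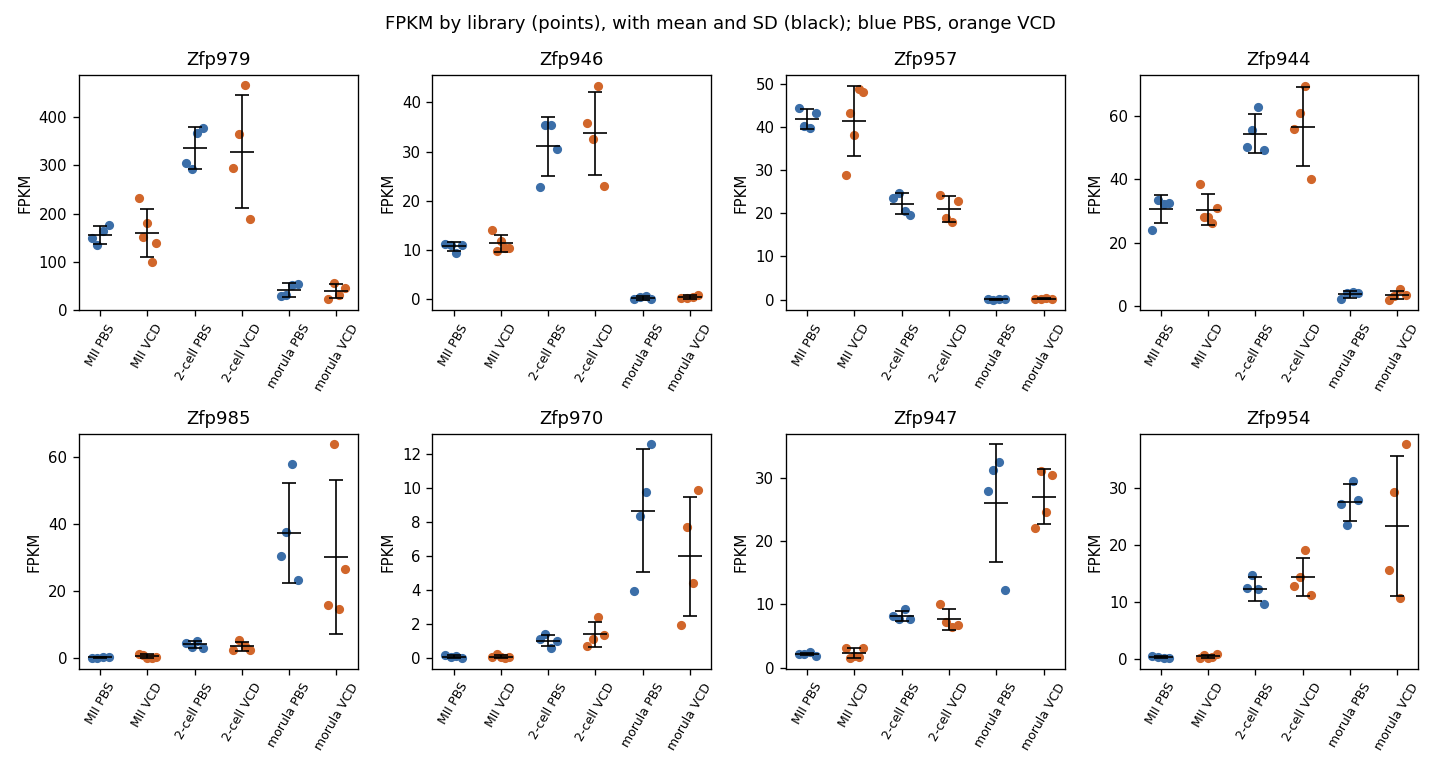
FPKM of 8 named members in each library (points) with the group mean and SD in black; blue is PBS, orange is VCD. The top row holds members that fell after the 2-cell stage, with Zfp957 highest in oocytes, and the bottom row holds members that rose with PBS, with Zfp985 reaching 57.9 FPKM in PBS morulae and 63.8 in VCD morulae.

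Neighbours within an array did not move as 1 block. Along chromosome 4, Zfp982, Zfp985 and Zfp979 follow each other with 39790 and 26738 bases between them, and the outer genes fell while the middle gene rose. At the far end of that array Zfp990 rose by 1.14 and the next member, Zfp980, fell by 2.68 ± 0.13. With PBS 5 of 15 chromosome 4 members tested rose and 7 fell, on chromosome 17 2 of 10 rose and 6 fell, and on chromosome 8 none of 5 rose and 4 fell (all genes 42.7% and 45.0%). With VCD these counts were 2 and 6 of 14, 5 and 6 of 12, and 0 and 4 of 5. Over all genes 41.0% rose and 43.9% fell. The splits on chromosomes 4 and 17 thus differed. All risers of chromosome 4 with PBS were tested with VCD too, but Zfp981, Zfp986 and Zfp987 were not called there. Of that chromosome only Zfp933, which fell, was tested with PBS alone. On chromosome 17 Zfp959 and Zfp995 rose with VCD and did not pass the filter with PBS. Zfp995 passed it with VCD through the morulae alone, which fixed its direction. Zfp952 there rose by 0.60 ± 0.23 with VCD and by 0.44 ± 0.23, not called, with PBS. No interaction of agent and stage was called, so the agents are not shown to differ. Members with under 20% shared words rose in 5 and fell in 16 of 25 tests with PBS, with a median of -1.27. Those with more rose in 8 and fell in 10 of 21, with a median of -0.24. With VCD the members under 20% rose in 7 and fell in 15 of 26, with a median of -1.04. Those with more rose in 4 and fell in 10 of 22, with a median of -0.64. The order of the shares that rose thus turned. Zfp934, Zfp981, Zfp986 and Zfp987, all with 20% or more, were tested with both agents but called as risers with PBS alone. Zfp959 and Zfp995, both under 20%, were called as risers with VCD and not tested for this change with PBS. With PBS some fallers, such as Zfp946 and Zfp957 under 20% and Zfp931 above it, passed the filter through the 2-cell libraries alone. Their direction was fixed by the filter, and the medians depend on it.

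**Figure D4:**
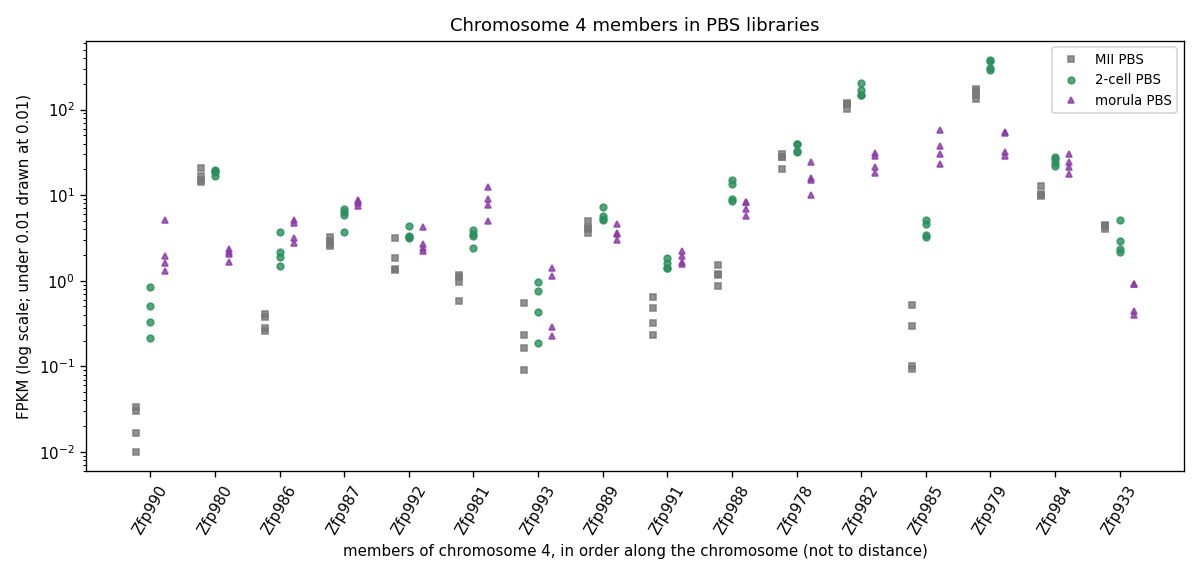
FPKM of the 16 chromosome 4 members in PBS libraries on a log axis, in order along the chromosome (spacing not to scale); grey squares are oocytes, green circles 2-cell embryos, purple triangles morulae, and values under 0.01 are drawn at 0.01. Triangles lie below circles for Zfp982 and Zfp979 and above them for Zfp985, which stands between the pair.

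The next comparison set VCD against PBS at each stage, to ask whether the agent moved these genes. No member was called in any stage. In MII oocytes 0 of 33 tested passed by limma (0.0115% of all genes), in 2-cell embryos 0 of 45 (0% of all genes), in morulae 0 of 39 (0.0100% of all genes), and for the interaction of agent and stage 0 of 50 (0% of all genes). At an unadjusted p below 0.05 there were 2, 1, 0 and 0 members (2.81%, 3.44%, 3.12% and 3.55% of all genes), and limma-voom on recovered reads called 0 genes in each. The 95% interval of the difference lay within 1 unit of 0 on the log2(FPKM + 1) scale for 33 of 33 members in oocytes, 43 of 45 in 2-cell embryos and 30 of 39 in morulae. Turned into FPKM from the PBS mean, a reading chosen after seeing the data, it lay within 2-fold for 31, 37 and 16 of them, so shifts of that size could be missed for some members at every stage.

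The 2 members of smallest unadjusted p in oocytes were Zfp933 and Zfp932. Zfp933, at the end of the chromosome 4 array with 1.05% shared words, had 4.06, 4.48, 4.34 and 4.40 FPKM with PBS and 3.07, 2.97, 2.88, 2.86 and 3.42 with VCD. The difference was -0.40 ± 0.09 (SE), with an adjusted p of 0.999 by limma. Zfp932, on chromosome 5 with 37.0% shared words, had 2.89, 2.72, 2.55 and 2.96 FPKM with PBS and 2.04, 2.31, 2.46, 2.29 and 2.33 with VCD, a difference of -0.20 ± 0.09. In 2-cell embryos Zfp932 averaged 20.0 ± 0.681 FPKM with PBS and 14.7 ± 3.84 with VCD (-0.45 ± 0.17), where the VCD values ran from 10.1 to 19.5. In morulae its means were 7.03 and 6.95 FPKM. None of these differences passed the adjusted threshold.

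Zfp937 and Zfp956 came next in oocytes, at -0.28 ± 0.20 and 0.19 ± 0.15. In 2-cell embryos Zfp991 (0.25 ± 0.16), Zfp960 (-0.35 ± 0.23) and Zfp964 (0.19 ± 0.14) followed Zfp932. The 4 of smallest p in morulae were Zfp960 (-0.37 ± 0.20), Zfp984 (-0.35 ± 0.22), Zfp938 (0.41 ± 0.30) and Zfp970 (-0.54 ± 0.42). For the interaction they were Zfp932, Zfp931, Zfp984 and Zfp970, between -0.75 and 0.49. Each of these is within about 2 standard errors of 0.

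**Figure D5:**
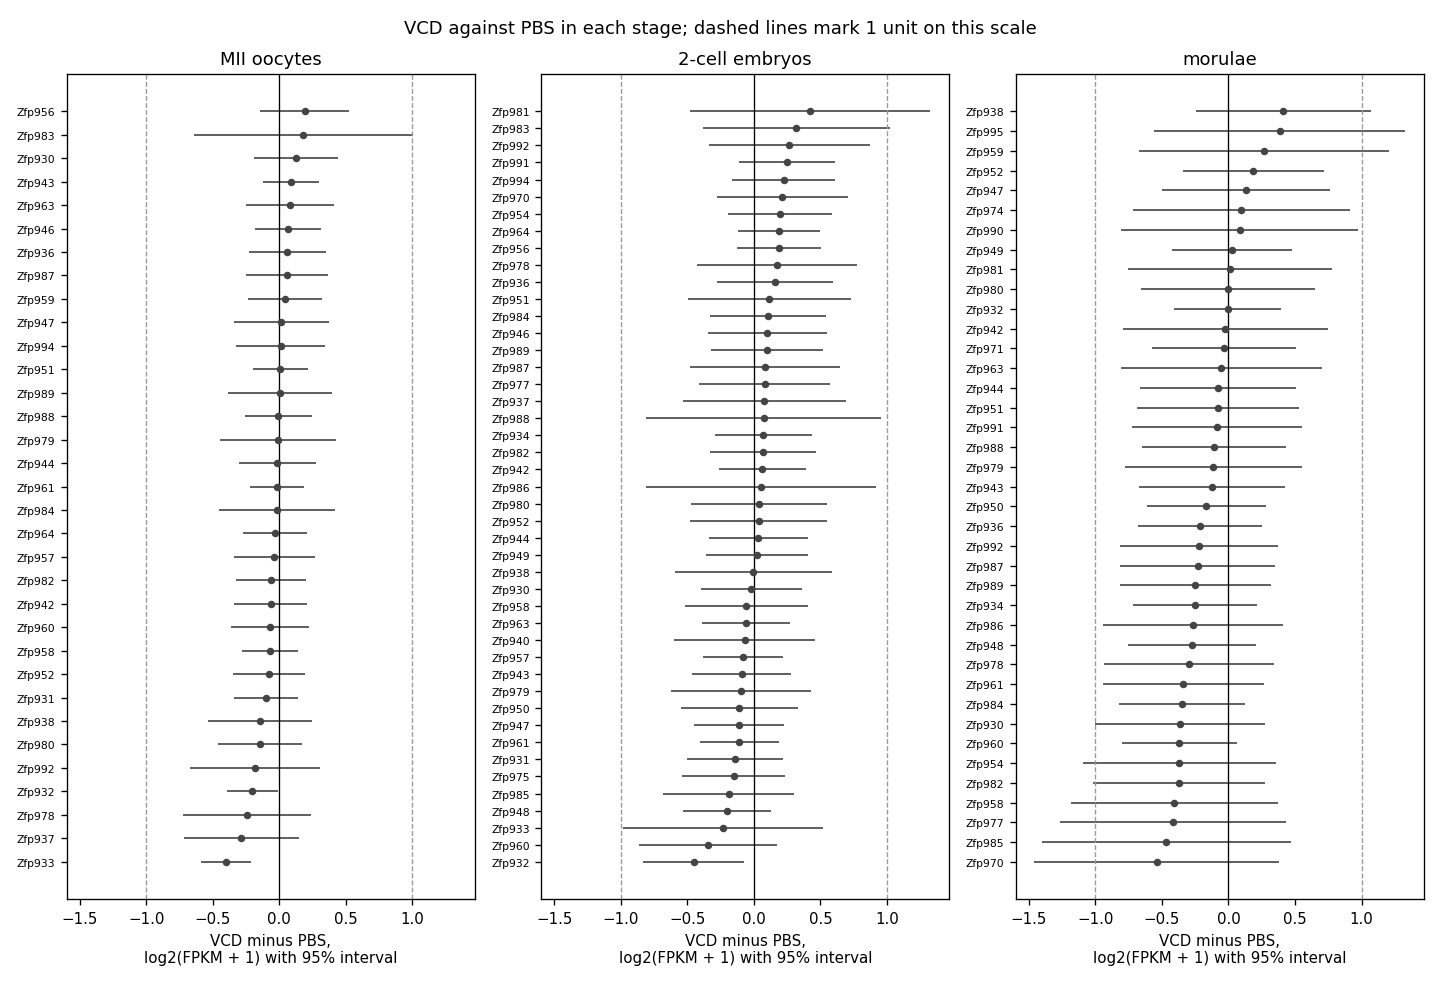
Difference between VCD and PBS on the log2(FPKM + 1) scale with 95% intervals for each tested member in the 3 stages; dashed lines mark 1 unit on this scale. Intervals are narrowest in oocytes, where only Zfp933 and Zfp932 leave 0, and widest in morulae.

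In morulae 30 of 39 members were lower with VCD, with a median of -0.12. Over all genes 51.1% were lower, with a median of -0.01, and of other numbered Zfp genes 104 of 168 (61.9%), with a median of -0.07. Replicate 1 of the VCD morulae was the lowest of its group for 28 of the 39. Without it, an alternative chosen after seeing the data, 21 of 39 were lower, with a median of -0.05; leaving out the other VCD morulae in turn gave between 28 and 33, with medians from -0.25 to -0.12. Members share libraries, so their signs are not independent. Summed over members, VCD morulae ranged from 257 to 513 FPKM and PBS morulae from 393 to 498, so the groups overlapped. At every stage the VCD sums were spread more widely than the PBS sums, with an SD of 108 against 42.9 in oocytes, 287 against 95.1 in 2-cell embryos and 120 against 48.1 in morulae. Whether the spread differs was not tested. The widest case was the 2-cell stage, where replicate 3 summed to 1412 FPKM and replicate 4 to 719, while the share of other numbered Zfp genes in those libraries was 0.879% and 0.746% of all FPKM.

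A list of 33 other genes of the pathway was followed, made of partners of KRAB zinc fingers, heterochromatin effectors and the zinc finger genes Zfp57, Zfp445, Zfp42 and Zfp809. With PBS 15 of 32 tested were higher in morulae and 11 lower (46.9% and 34.4%, all genes 42.7% and 45.0%), and with VCD 15 and 10 (all genes 41.0% and 43.9%). Trim28, which KRAB domains recruit, rose from 5.07 ± 1.23 to 57.6 ± 13.1 FPKM, by 3.27 ± 0.20. Setdb1, its histone methyltransferase, fell by 0.69 ± 0.17, from 16.6 ± 2.25 to 10.04 ± 2.36 FPKM. Zfp57, a KRAB zinc finger that guards imprinted loci, fell by 5.18 ± 0.24, from 374 ± 86.1 to 9.58 ± 3.59 FPKM. Like the members, no gene of the list was called for VCD against PBS in the 26, 29 and 32 tested in oocytes, 2-cell embryos and morulae.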

How the data were processed

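Members and lists were chosen with earlier results of these data known. The submitters' processing notes list TopHat2 2.0.12, Bowtie2 2.2.3 and, as build, galGal4, which is chicken; the identifiers in the deposited tables are mouse Ensembl identifiers, so no coordinate was taken from that build. The authors deposited FPKM in 2 tables, 1 for oocytes and 1 for embryos; no source used here names the counting tool or says how it treated fragments that match several genes. FPKM does not correct for a few very abundant genes, so their change shifts all others.

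Symbols and coordinates come from GENCODE M21 on GRCm38, matched by identifier, and promoters from RefSeq on GRCm38.p6. Depth was recovered from the steps of FPKM times exon length: between 90.6% and 93.4% of values under 200 reads were whole within 0.01. Because the tables held FPKM, limma 3.58.1 in R 4.3.3 with a variance trend was run on log2(FPKM + 1) for genes that reached 1 FPKM in 4 or more of the compared libraries, with Benjamini-Hochberg adjustment over all genes and a threshold of 0.05. Fold changes on this scale understate changes of low genes. The steps were tested on simulated data. Python 3.11.15, pandas 2.3.3, biopython 1.88 and matplotlib 3.10.9 were used for the rest.

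Named members were the 8 of highest mean; the 6 of largest fall and 6 of largest rise from 2-cell to morula with PBS, among those past the threshold, without overlap and at 2 FPKM or more in the higher group; the 4 of smallest p for each VCD comparison and the interaction; Zfp933; and those over 5 times apart between oocytes and 2-cell embryos. Other names in the text were chosen after their values were seen. Alternatives were another pseudocount, other filters and scalings, limma-voom on recovered reads, array weights, the replicate number as a block, each library left out, the lettered symbols added, and members with under 20% shared words alone.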

Additional observations from a re-analysis of the deposited data

Results flagged for a closer look

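Of 174 groups of 4 or 5 libraries of the named members, 10 had 1 library far from the others by Dixon's test, and chance alone flags about 1 in 20 groups. Replicate 2 of the VCD morulae was the far library in 4 of them. It was high for Zfp977 (11.8 FPKM, the others at most 3.57), Zfp990 (6.51 FPKM, the others at most 1.82) and Zfp964 (0.252 FPKM, the others listed at 0), and low for Zfp950 (3.33 FPKM, the others at least 5.24).

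Zfp990 was also far in replicate 3 of the VCD 2-cell embryos (1.24 FPKM, the others at most 0.129) and in replicate 1 of the VCD oocytes (0.257 FPKM, the others at most 0.0519). Replicate 2 of the VCD oocytes was high for Zfp970 (0.260 FPKM). Among PBS libraries, replicate 1 of the oocytes was low for Zfp944 (24.0 FPKM, the others at least 32.3), replicate 3 of the oocytes was low for Zfp946 (9.51 FPKM, the others at least 11.1), and replicate 4 of the 2-cell embryos was high for Zfp958 (38.1 FPKM, the others at most 24.8).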

How the results depend on the processing

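The counts of members called for VCD against PBS and for the interaction were 0 under every alternative run. From 2-cell embryo to morula, 39 members were called with PBS and 36 with VCD; a filter of 5 FPKM, which tests fewer genes, left 23 and 20, and members with under 20% shared words alone gave 21 and 22. Leaving out 1 library gave between 37 and 40 with PBS and between 32 and 38 with VCD. Without a clear pairing (correlations of same-numbered deviations from -0.325 to 0.378), the replicate block gave 39 and 36, and 0 for VCD against PBS. Scaling moved the median change of all genes with PBS from -0.08 to -0.36 (median-of-ratios) or 0.11 (quantile). Members were then higher and lower in 10 and 28 or 15 and 24 cases. Of these calls 26.3% or 38.5% were higher, against 44.2% or 51.8% of the calls over all genes. In the main run these shares were 33.3% for members and 48.7% for all genes. No named member called from 2-cell to morula changed sign (26 with PBS, 24 with VCD). Those not called did: Zfp958, Zfp984 and Zfp991 of 3 with PBS and Zfp991 of 4 with VCD, as did 13 of 21, 18 of 28 and 10 of 22 named VCD differences in oocytes, 2-cell embryos and morulae. A pseudocount of 0.1 moved 8 called changes with PBS and 6 with VCD by over 1.5 times, and limma-voom 9 and 7. Zfp988, Zfp984, Zfp937, Zfp938, Zfp954 and Zfp991 crossed the threshold under some alternatives, Zfp984 with VCD under the replicate block among them (-0.57, adjusted p = 0.0602 by limma); the cause was not tested. Zfp988 with PBS lost its call without 2-cell replicate 3 or 4 or morula replicate 2, and with VCD gained it without 2-cell replicate 4 (-1.21). Depth, for genes of few fragments, and the spread of 4 libraries, as in VCD morulae, may limit such calls, which was not tested.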
